A study of Mus musculus with 4 samples.

Results

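The genes described are 10 genes of the actin cytoskeleton, chosen by symbol from the 24442 genes of a table of RNA sequencing counts. They are the 2 cytoplasmic actins Actb and Actg1, the thymosins Tmsb4x and Tmsb10, and the regulators Coro1a, Lcp1, Pfn1, Cfl1, Arpc1b and Was. They were chosen with their lower values in Lgr6-positive cells already known from these libraries, so their differences between the populations are given as a description and carry no test. The cells were sorted by flow cytometry from mammary glands of 5-week-old female Lgr6-eGFP-CreErt2 mice, which carry a green fluorescent protein and an inducible Cre recombinase at the Lgr6 locus. Lgr6-positive cells, the population with the reporter, were set against Lgr6-negative cells of the same kind of mouse, with 2 libraries of each. No treatment is given in the labels. The glands were digested enzymatically, red cells were lysed, and the sort was from lineage-negative cells. The lineage markers, the gate of the Lgr6-negative cells and whether replicates came from separate animals are not stated by the labels. Any p-value below therefore measures the spread between these libraries, which may be technical.

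Actin cycles between free monomers and filaments. Thymosins hold monomers in reserve, profilin feeds them to growing filament ends, and cofilin severs old filaments and returns monomers to the pool. The Arp2/3 complex starts branched filaments once a protein of the WASP or WAVE family activates it, and coronins and plastins remodel or bundle the network. Most of these proteins exist as paralogs. In some of the families, a broadly used paralog stands beside another used mainly by blood cells. Coro1a, Lcp1 (L-plastin) and Was (the Wiskott-Aldrich syndrome protein) belong to the blood cell set. Lgr6 is a receptor for R-spondins, ligands that strengthen Wnt signals, and marks progenitor cells in several epithelia.

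Both actins are nearly the same protein and differ mainly in acidic residues at the amino terminus, aspartates in Actb and glutamates in Actg1. Their coding parts show how far reads of the 2 genes can be told apart. The first 90 coding bases are given from GENCODE M21 transcripts on GRCm38, the build also called mm10, at chr5:142905597-142905686 (minus strand) for Actb and chr11:120348002-120348091 (minus strand) for Actg1, with capitals at the 16 bases that differ.
Actb: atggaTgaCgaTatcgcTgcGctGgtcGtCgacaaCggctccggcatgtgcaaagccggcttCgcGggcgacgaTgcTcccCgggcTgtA
Actg1: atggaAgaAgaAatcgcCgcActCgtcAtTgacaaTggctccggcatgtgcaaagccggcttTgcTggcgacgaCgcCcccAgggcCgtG
Over the whole 1128 coding bases, stop codon included, 128 differ, 120 of them at the last position of a codon, and the longest identical run is 62 bases. The sequencing reads were of 50 bases, and 30 windows of that length were identical between the coding parts of Actb and Actg1.

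The thymosins are small monomer-binding peptides whose coding parts can be shown whole, at chrX:167207501-167208036 (minus strand) for Tmsb4x and chr6:72957618-72958012 (minus strand) for Tmsb10, where the coordinates include an intron that is left out of the sequence. Capitals mark the 40 of 135 bases that differ.
Tmsb4x: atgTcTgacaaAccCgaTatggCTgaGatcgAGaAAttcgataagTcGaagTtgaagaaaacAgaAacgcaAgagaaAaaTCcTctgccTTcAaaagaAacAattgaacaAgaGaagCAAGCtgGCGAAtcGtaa
Tmsb10: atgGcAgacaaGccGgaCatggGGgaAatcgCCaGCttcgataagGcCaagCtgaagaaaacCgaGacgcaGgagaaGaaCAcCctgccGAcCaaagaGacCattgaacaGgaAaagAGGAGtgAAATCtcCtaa
No window of 50 bases was identical between them, and the longest identical run was 10 bases. Within the transcripts of GRCm38, however, 63.5% of the 50-base windows of Tmsb10 also occurred in 5 other genes, 4 of them pseudogenes, against none of Tmsb4x. For Actg1 the share was 60.7%, with 22 other genes, and for Actb 14.2%, with 18. It was 42.2% for Arpc1b, 23.0% for Cfl1, 11.4% for Lcp1, 3.2% for Was and 0% for Coro1a and Pfn1. By this measure the counts of Tmsb10, Actg1 and Arpc1b are the most exposed to how the authors' counting treated such reads. Fractional counts, which RSEM gives when it divides reads between genes, occurred only in Actb and Actg1 among the 10 genes. Arpc1b shares 18.2% of its exonic bases with other genes, chiefly Pdap1 on the opposite strand, and Cfl1 shares 16.5%, chiefly with Snx32. The strand setting of the counting is not given, so reads from such an overlap cannot be assigned.

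Promoters of 9 of the 10 genes were found in the RefSeq table (GRCm38.p6), 13 promoters in all; Actb was not matched. They were searched on both strands, within 250 bases before the start, for a CArG box (the site of SRF, the factor that ties actin gene activity to the monomer pool), for GGAAGT (the core of sites of ETS factors, a family that includes the blood cell factor PU.1) and for 4 other motifs. The 3 promoters below are shown because they hold a CArG box or the ETS core. They lie at chr11:120348496-120348745 (minus strand) for Actg1, chr14:75130873-75131122 (plus strand) for Lcp1 and chrX:8090492-8090741 (minus strand) for Was. Capitals mark the CArG box and CCAAT in Actg1, and in Lcp1 and Was the letters ACTTCC, which are GGAAGT on the opposite strand.
Actg1: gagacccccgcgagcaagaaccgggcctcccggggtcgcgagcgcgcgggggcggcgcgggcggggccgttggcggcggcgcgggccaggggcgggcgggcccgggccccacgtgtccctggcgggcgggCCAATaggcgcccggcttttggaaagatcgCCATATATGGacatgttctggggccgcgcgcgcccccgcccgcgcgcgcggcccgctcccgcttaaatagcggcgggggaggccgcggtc
Lcp1: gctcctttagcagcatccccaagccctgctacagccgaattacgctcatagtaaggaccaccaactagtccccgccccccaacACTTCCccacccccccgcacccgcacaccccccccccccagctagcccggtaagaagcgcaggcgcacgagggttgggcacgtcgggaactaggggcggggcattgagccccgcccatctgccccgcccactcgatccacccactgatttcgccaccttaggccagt
Was: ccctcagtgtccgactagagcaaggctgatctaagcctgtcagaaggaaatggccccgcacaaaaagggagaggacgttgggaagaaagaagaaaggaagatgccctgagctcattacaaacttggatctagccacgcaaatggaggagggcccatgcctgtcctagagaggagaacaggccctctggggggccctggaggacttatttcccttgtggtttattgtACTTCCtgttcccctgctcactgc
The CArG box of Actg1 lay 90 to 81 bases before the start, and 1.47% of 32851 promoters of the same length held one. GGAAGT was found in a promoter of Lcp1, Cfl1 and Was, 3 of 13, against 19.7% of all promoters. In Was it lay 24 to 19 bases before the start, in Cfl1 26 to 21 and in Lcp1 167 to 162. The longer PU.1 form GAGGAAGT was in none of the 13 (2.44% of all promoters), nor was TATAAA (12.4%). GGGCGG, the core of Sp1 sites, was in 9 of 13 (32.7% of all) and CCAAT in those of Actg1 and Cfl1 (33.8% of all). GAGGAAGT contains GGAAGT, a promoter with several matches was counted once, and a match is only a run of letters.

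The 4 libraries were close in depth, with 6819127 to 7167465 counts. Reads of Rn45s, a ribosomal RNA precursor, were 17.2% and 14.5% of the total in Lgr6-positive libraries, against 18.7% and 30.8% in Lgr6-negative libraries. Lgr6 itself had 172 and 655 counts in Lgr6-positive libraries, against 3 and 10 in Lgr6-negative libraries, and did not pass (adjusted p 0.0510 by edgeR). Values below are CPM, counts scaled to a fixed library total, after TMM scaling. TMM adjusts each library total on the assumption that most genes do not differ between libraries. Its factors were 1.21 and 1.13 for Lgr6-positive libraries, against 0.929 and 0.787 for Lgr6-negative libraries. In these units 3 counts, the floor of detection, were 0.368 to 0.533 CPM. The floor covers counting error only. Over all 11661 genes tested, edgeR's quasi-likelihood test with Benjamini-Hochberg adjustment (adjusted p under 0.05) called 524 higher (4.49%) and 533 lower (4.57%) in Lgr6-positive cells, so 49.6% of calls were higher. Under plain library-size scaling the log2 fold changes moved up by 0.45 in the median, and 65.8% of calls were higher (628 against 327).

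All 10 genes were lower in both Lgr6-positive libraries than in either Lgr6-negative library. Such a lack of overlap in that direction was seen in 25.9% of all genes tested. The fold change passed the threshold for 9 of the 10, against 4.57% of all genes, and the exception was Actg1. Since the genes were selected on this contrast, nothing is read from these counts. The median log2 fold change (Lgr6-positive over Lgr6-negative) of the 10 was −2.52, against 0.10 over all genes. Together they took 0.796% and 0.798% of all counts in Lgr6-positive libraries, against 2.08% and 1.95% in Lgr6-negative libraries. The actins made up 80.4% and 75.9% of the 10 genes' counts in Lgr6-positive libraries, against 60.7% and 62.8% in Lgr6-negative libraries. In such bulk samples fewer cells of a type and less RNA per cell cannot be told apart.

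**Figure D1:**
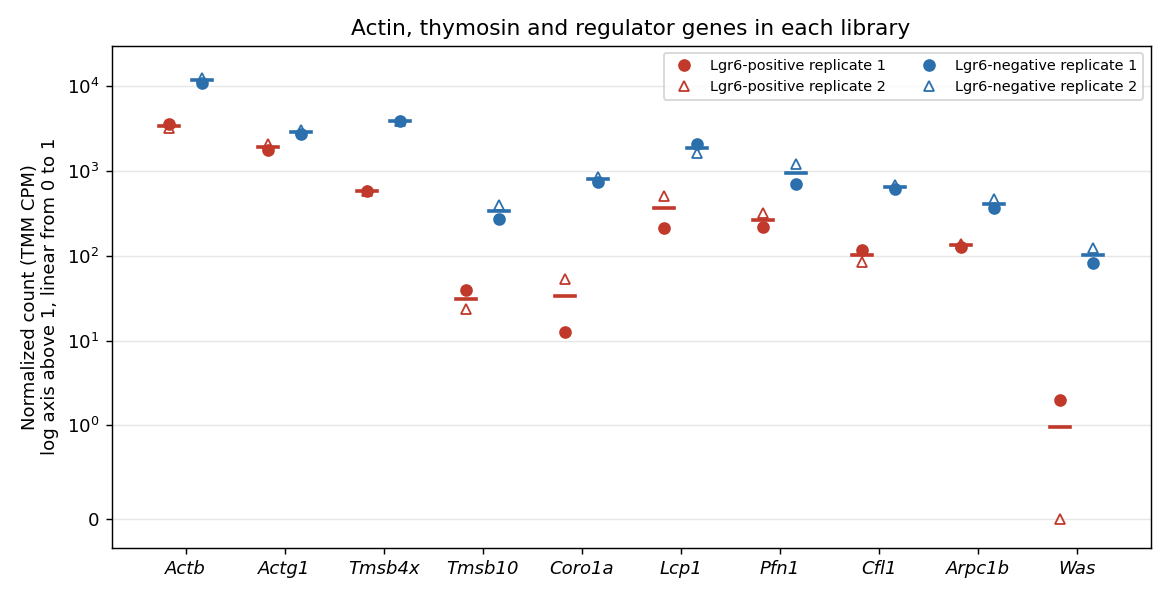
Normalized count (TMM CPM; log axis above 1 and linear from 0 to 1) of each gene in each library, with Lgr6-positive libraries in red on the left and Lgr6-negative libraries in blue on the right; circles are replicate 1, triangles replicate 2 and bars the mean. The red points lie below the blue points for every gene, closest for Actg1 and farthest apart for Was, which had 0 counts in Lgr6-positive replicate 2.

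Leukocyte markers moved with these genes. The summed level of 14 leukocyte markers was 2086 to 2385 CPM in Lgr6-positive libraries, against 32160 to 36136 CPM in Lgr6-negative libraries, or 6.55% of the Lgr6-negative level in the mean. Of the 14, 12 fell in Lgr6-positive cells, Cd3e and Cd79a did not pass, and none was at 0 in both libraries of a population. The pan-leukocyte phosphatase Ptprc had 394 and 185 counts in Lgr6-positive libraries, against 11168 and 6692 in Lgr6-negative libraries. Markers of other cells were higher in Lgr6-positive libraries. The summed luminal epithelial markers were at 4665 to 4708 CPM, against 114 to 137 CPM in Lgr6-negative libraries, with 7 of 7 genes risen. Basal epithelial markers were at 1624 to 1682 CPM, against 116 to 133 CPM, with 3 of 5 risen, and endothelial markers at 1078 to 1380 CPM, against 99.5 to 139 CPM, with 4 of 4 risen. Fibroblast (2 of 5 risen), pericyte (1 of 3), adipocyte (1 of 2) and red cell markers (6 of 7) were also higher in sum, with Pdgfra, Adipoq, Plin1, Hba-a2 and Hbb-bs at 0 in Lgr6-negative libraries. The red cell markers Hbb-b2 and Hbb-bt had the same fractional counts in every library, so their calls are not independent. Platelet markers were at 23.3 to 25.5 CPM, against 0.156 to 1.60 CPM, and neither of the 2 tested passed; Gp9 was at 0 in all 4 libraries, Gp1bb in both Lgr6-positive and Pf4 in both Lgr6-negative libraries. The part of these cell types in the differences described here was not tested.

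The actins were the most abundant of the 10 genes in Lgr6-positive cells, and their differences between the populations were unequal in size. Actb (chr5:142903115-142906754, minus strand) encodes beta-actin, a filament subunit often used as a reference gene. It had 3588 and 3269 CPM in Lgr6-positive libraries, against 10902 and 12552 CPM in Lgr6-negative libraries. The populations did not overlap, and the mean was 3.42-fold lower in Lgr6-positive libraries, a log2 fold change of −1.77 (SE 0.17). Actg1 (chr11:120345690-120348542, minus strand) encodes gamma-actin. It had 1761 and 2098 CPM in Lgr6-positive libraries, against 2736 and 3021 CPM in Lgr6-negative libraries. The populations did not overlap, but the difference was the smallest of the 10 genes, with a log2 fold change of −0.58 (SE 0.22), or 1.49-fold lower. Across 12 alternative analyses its log2 fold change ranged between −0.74 and −0.13, the value nearest 0 coming from library-size scaling.

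The thymosins differed more between the populations than the actins they bind. Tmsb4x (chrX:167207093-167209315, minus strand) encodes thymosin beta 4, the main monomer-sequestering peptide of many cells. It had 575 and 574 CPM in Lgr6-positive libraries, against 3934 and 3871 CPM in Lgr6-negative libraries. The replicates were closer for it than for the other 9 genes in Lgr6-positive cells, and the level was 6.79-fold lower there (log2 fold change −2.76, SE 0.23). Tmsb10 (chr6:72957347-72958748, minus strand) encodes thymosin beta 10, a related peptide. It had 39.0 and 23.3 CPM in Lgr6-positive libraries, against 271 and 400 CPM in Lgr6-negative libraries. The Lgr6-positive mean was 10.8-fold lower, a log2 fold change of −3.43 (SE 0.54), with more spread between replicates than Tmsb4x.

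Monomer turnover genes showed the same direction. Pfn1 (chr11:70651850-70654644, minus strand) encodes profilin 1, which loads monomers with ATP and delivers them to filament ends. It had 219 and 316 CPM in Lgr6-positive libraries, against 708 and 1197 CPM in Lgr6-negative libraries. The 2 Lgr6-negative libraries were themselves 1.69-fold apart, and the log2 fold change was −1.83 (SE 0.38), or 3.56-fold lower in Lgr6-positive cells. Cfl1 (chr19:5490455-5495201, plus strand) encodes cofilin 1, which severs filaments and is switched off by phosphorylation. It had 118 and 85.3 CPM in Lgr6-positive libraries, against 609 and 690 CPM in Lgr6-negative libraries. The Lgr6-positive mean was 6.39-fold lower, a log2 fold change of −2.67 (SE 0.39), and each pair of replicates lay close together beside that gap.

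Branched filament genes spanned a wide range of differences. Arpc1b (chr5:145114215-145130705, plus strand) encodes a subunit of the Arp2/3 complex that, in humans, predominates in blood cells. It had 127 and 140 CPM in Lgr6-positive libraries, against 366 and 462 CPM in Lgr6-negative libraries. The Lgr6-positive mean was 3.11-fold lower, a log2 fold change of −1.64 (SE 0.40), with replicates close together in each population. Was (chrX:8081453-8090498, minus strand) encodes the activator of the Arp2/3 complex that is lost in Wiskott-Aldrich syndrome, an inherited immunodeficiency. It had 16 and 0 counts in Lgr6-positive libraries, against 524 and 700 in Lgr6-negative libraries, which are 1.96 and 0 CPM against 81.8 and 124 CPM. The level in Lgr6-positive replicate 2 was thus under the floor, and the log2 fold change over both libraries was −6.68 (SE 1.56). Without Lgr6-positive replicate 1, Was would be at 0 counts in Lgr6-positive cells, and its level is then at least 271-fold lower than in Lgr6-negative cells, against a floor of 3 counts per library. Without Lgr6-positive replicate 2 the log2 fold change was −5.73.

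Of the 9 genes with counts in all 4 libraries, the filament network genes Coro1a and Lcp1 had the widest spread between the Lgr6-positive replicates. Coro1a (chr7:126699773-126707787, minus strand) encodes coronin 1A, a filament-binding protein of leukocytes that is needed for T cell survival. It had 12.8 and 53.6 CPM in Lgr6-positive libraries, against 736 and 860 CPM in Lgr6-negative libraries. The Lgr6-positive replicates were 4.20-fold apart, and the log2 fold change was −4.59 (SE 0.67), or 24.0-fold lower. It was −5.99 without Lgr6-positive replicate 2 and −3.90 without Lgr6-positive replicate 1. Lcp1 (chr14:75131101-75230842, plus strand) encodes L-plastin, which bundles filaments in leukocytes. It had 215 and 510 CPM in Lgr6-positive libraries, against 2110 and 1623 CPM in Lgr6-negative libraries. The log2 fold change was −2.37 (SE 0.42), or 5.15-fold lower, and it was −3.15 without Lgr6-positive replicate 2 and −1.88 without Lgr6-positive replicate 1. Both genes were higher in Lgr6-positive replicate 2. Leukocyte markers held both directions between the Lgr6-positive replicates. Ptprc was higher in replicate 1 (48.3 against 23.4 CPM), whereas Lyz2 (1040 against 1370 CPM) and Cd74 (327 against 498 CPM) were higher in replicate 2.

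**Figure D2:**
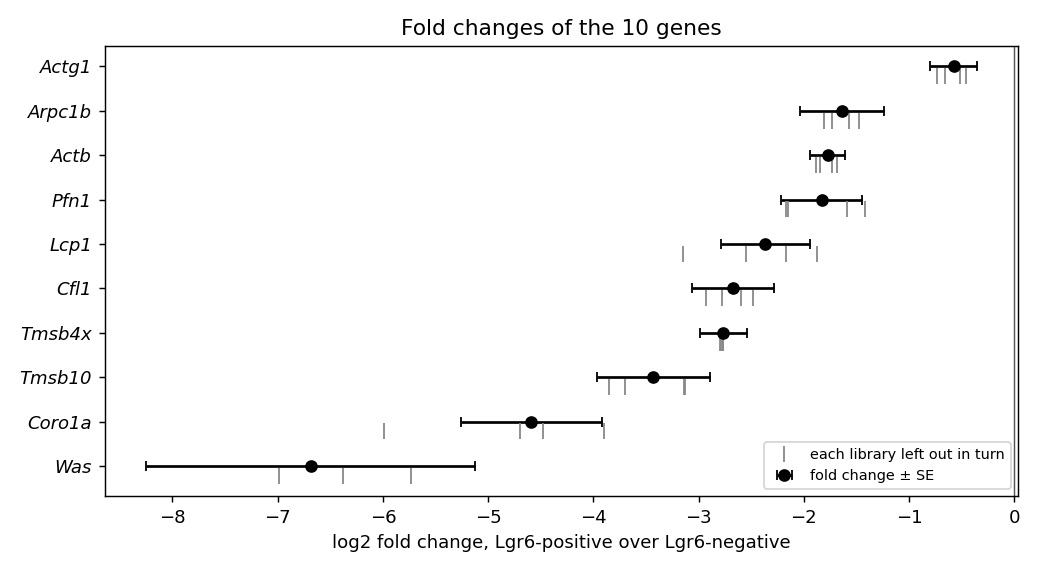
Log2 fold change of each gene, Lgr6-positive over Lgr6-negative, in the fit of all 4 libraries (points, with SE as bars) and in fits that leave out 1 library (grey ticks; for Was the fit without Lgr6-positive replicate 1 is not drawn, since it leaves 0 counts). All values lie below 0, from −0.58 for Actg1 to −6.68 for Was, and the ticks of Coro1a and Lcp1 spread furthest beyond the SE.

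The order of levels, set per kilobase of 1 transcript so that genes of different length can be compared, differed between the populations in its upper part. In Lgr6-positive cells Actb led at 1703 to 1869 CPM per kilobase, followed by Actg1 (964 to 1148) and Tmsb4x (748 to 749). In Lgr6-negative cells Actb was at 5678 to 6538 CPM per kilobase, followed by Tmsb4x (5041 to 5123), with Actg1 after it (1497 to 1653). Tmsb4x thus stood below Actg1 in both Lgr6-positive libraries and above it in both Lgr6-negative libraries, also when levels were set per kilobase of all exons. Pfn1 came next in each population, at 254 to 367 CPM per kilobase in Lgr6-positive and 822 to 1390 in Lgr6-negative cells, and Was was last in both. Lcp1, Tmsb10, Cfl1 and Arpc1b, at 36.2 to 202 CPM per kilobase, lay between them in Lgr6-positive cells, with Coro1a below them at 7.68 to 32.3. Of these, Tmsb10, Cfl1 and Arpc1b overlapped. In Lgr6-negative cells the neighbours Pfn1, Lcp1, Tmsb10 and Coro1a overlapped in turn, Coro1a at 444 to 518 CPM per kilobase, and Cfl1 (259 to 293) and Arpc1b (118 to 149) stood below. Among the middle genes the order changed with the choice of length.

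Set against a relative of their own family, most of the 10 genes took a smaller place beside the relative in Lgr6-positive libraries. Because the 10 genes were chosen for lower values there, a smaller ratio to a relative outside them largely restates that choice. The ratios are given as a description. For plastins, the ratio of Lcp1 to Pls3 (T-plastin, of epithelial and mesenchymal cells) per kilobase was 1.83 and 7.23 in Lgr6-positive libraries, against 1125 and 325.5 in Lgr6-negative libraries. Pls3 rose, with 1193 and 695 counts in Lgr6-positive libraries, against 15 and 35 in Lgr6-negative libraries (log2 fold change 4.77, SE 0.94, adjusted p 0.0157 by edgeR). It was not called by limma-voom. For WASP proteins, the ratio of Was to Wasl (N-WASP, the ubiquitous form) was 0.0353 and 0 in Lgr6-positive libraries, against 13.2 and 13.9 in Lgr6-negative libraries. Wasl rose, with 934 and 996 counts in Lgr6-positive libraries, against 82 and 104 in Lgr6-negative libraries (log2 fold change 2.94, SE 0.73, adjusted p 0.0398 by edgeR). It was not called by limma-voom or when either Lgr6-negative library was left out.

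For the cofilin family the ratio of Cfl1 to Dstn (destrin, a related severing protein) was 0.206 and 0.180 in Lgr6-positive libraries, against 2.43 and 1.76 in Lgr6-negative libraries, so Dstn was the more abundant in Lgr6-positive and Cfl1 in Lgr6-negative libraries. Dstn itself did not pass (log2 fold change 0.70, SE 0.40, adjusted p 0.331 by edgeR). The ratio of Cfl1 to Cfl2, the muscle cofilin, was 4.54 and 0.836 in Lgr6-positive libraries, against 23.3 and 142.6 in Lgr6-negative libraries. Cfl2 did not pass (adjusted p 0.307 by edgeR). Coro1a over Coro1b, a coronin of many cell types, was at 0.270 and 1.08 in Lgr6-positive libraries, against 4.81 and 10.3 in Lgr6-negative libraries. Over Coro1c it was at 0.301 and 2.13 in Lgr6-positive libraries, against 15.01 and 27.06 in Lgr6-negative libraries. Neither Coro1b (log2 fold change −1.29, adjusted p 0.238 by edgeR) nor Coro1c (log2 fold change −0.26, adjusted p 0.876 by edgeR) passed.

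Actb over Actg1 was at 1.94 and 1.48 per kilobase in Lgr6-positive libraries, against 3.79 and 3.95 in Lgr6-negative libraries. The shift between the 2 actins did not overlap between populations. Arpc1b over its paralog Arpc1a was at 1.47 and 1.03 in Lgr6-positive libraries, against 2.92 and 20.7 in Lgr6-negative libraries, and Arpc1a did not pass (adjusted p 0.798 by edgeR). Tmsb4x over Tmsb10 overlapped, at 10.9 and 18.3 in Lgr6-positive libraries, against 10.8 and 7.18 in Lgr6-negative libraries. Pfn2, the second profilin, was nearly absent, with 17 and 0 counts in Lgr6-positive libraries, against 3 and 1 in Lgr6-negative libraries, and was not tested.

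**Figure D3:**
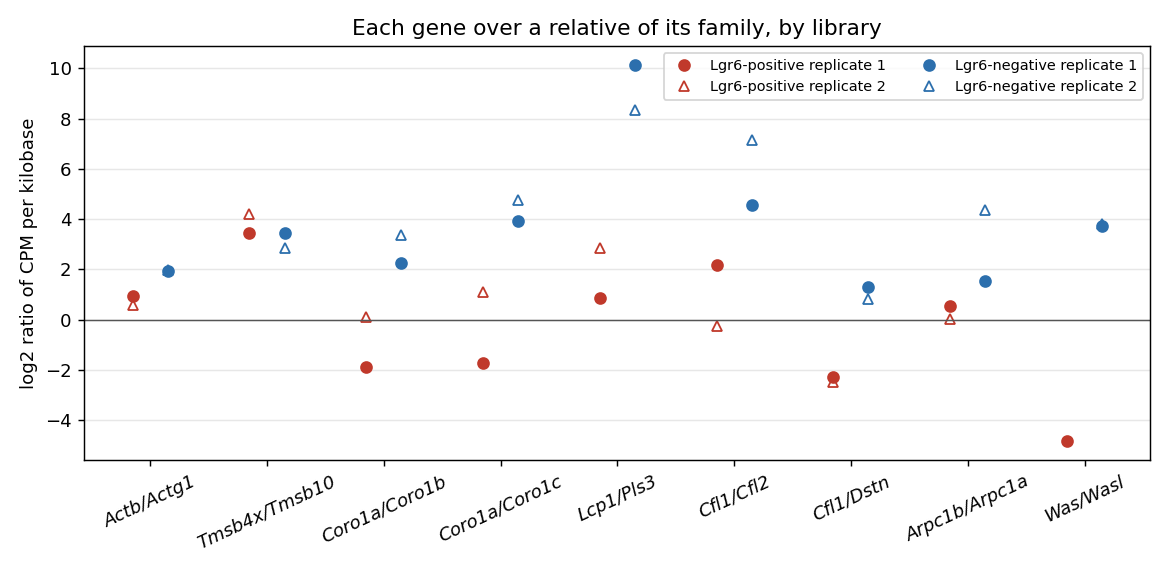
Log2 ratio of CPM per kilobase of each gene to a relative, in each library (Lgr6-positive in red on the left, Lgr6-negative in blue on the right; circles replicate 1, triangles replicate 2; the horizontal line marks equal levels). Blue points lie above red points in every pair drawn but Tmsb4x/Tmsb10, and Was/Wasl has no point for Lgr6-positive replicate 2, where Was had 0 counts.

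Beyond the 10 genes, 129 other genes of actin dynamics were listed, of which 126 were in the table and 107 were tested. Of these, 11 rose (10.3%), 26 fell (24.3%) and 70 did not pass in Lgr6-positive cells, against 4.49% and 4.57% of all genes. The lists were chosen with earlier results of these data known, so nothing is read from that contrast. The median log2 fold change of the 107 genes was −0.26. Library-size scaling left 13 of the falls. Of the 8 tested subunits of the Arp2/3 complex, 5 fell and none rose, with a median of −1.76. Actr3, an actin-related subunit of its core, had 295 and 474 CPM in Lgr6-positive libraries, against 1603 and 1639 CPM in Lgr6-negative libraries (log2 fold change −2.08, SE 0.32, adjusted p 0.00588 by edgeR). The other falls were Arpc4 (log2 fold change −2.14), Arpc2 (−1.72), Arpc5 (−1.85) and Actr2 (−1.80, named after its value was seen). Under library-size scaling 1 of these 5 calls remained, that of Actr3, and Arpc4 and Actr2 were also lost without Lgr6-negative replicate 2.

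Activators of the Arp2/3 complex held both directions. Of 15 tested genes of the WASP, WAVE and cortactin families, 5 fell and 4 rose. Nckap1l, the WAVE complex subunit of blood cells, had 327 and 340 counts in Lgr6-positive libraries, against 2507 and 2243 in Lgr6-negative libraries (log2 fold change −3.25, SE 0.45, adjusted p 0.00343 by edgeR). Nckap1, its broadly used paralog, had 1806 and 1679 counts in Lgr6-positive libraries, against 66 and 30 in Lgr6-negative libraries (log2 fold change 4.79, SE 0.67, adjusted p 0.00376 by edgeR). The pair thus moved in opposite directions. The WAVE complex genes Abi3 (log2 fold change −5.17, adjusted p 0.00282 by edgeR) and Cyfip2 (log2 fold change −4.47, adjusted p 0.00286 by edgeR) fell. Cttn, encoding cortactin, rose (log2 fold change 7.50, SE 1.36, adjusted p 0.0116 by edgeR). It had 856 and 1278 counts in Lgr6-positive libraries, against 9 and 0 in Lgr6-negative libraries, so the size of its change rests on few counts. Hcls1, the counterpart of Cttn in blood cells, fell (log2 fold change −4.38, adjusted p 0.0355 by edgeR). Cttn and Hcls1 were named after their values were seen, as were Wipf1 and Wipf3, which encode WASP-interacting proteins. Wipf1 fell (log2 fold change −3.32) and Wipf3 rose, at 17.3 and 91.9 CPM in Lgr6-positive libraries and 0 counts in both Lgr6-negative libraries, at least 109-fold higher against a floor of 3 counts per library. Hcls1 and Wipf1 were not called under library-size scaling or limma-voom, Hcls1 also not without Lgr6-negative replicate 1 and Wipf1 not without Lgr6-negative replicate 2. Wipf3 was not called without Lgr6-positive replicate 2.

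Among 12 tested coronins and bundling proteins, Lsp1, a filament-binding protein of leukocytes, fell (log2 fold change −5.02, SE 0.66, adjusted p 0.00279 by edgeR). Actn4, encoding the crosslinker alpha-actinin 4, rose beside Pls3 (log2 fold change 2.35, SE 0.39, adjusted p 0.00821 by edgeR). Of 9 capping and severing genes the capping protein subunits Capzb (log2 fold change −1.95) and Capza2 (−2.05) fell, neither of them under library-size scaling, and Capza1 missed the threshold (−1.61, adjusted p 0.0505 by edgeR). Capzb was also lost without Lgr6-negative replicate 2 and Capza2 without Lgr6-negative replicate 1. Of 8 formins, which build unbranched filaments, the blood cell formin Fmnl1 fell (log2 fold change −6.22, adjusted p 0.00716 by edgeR), and 7 did not pass. None of the 5 tested monomer-binding relatives of thymosin, profilin and cofilin passed, nor did the muscle actins Acta2 (log2 fold change 1.94, adjusted p 0.050002 by edgeR, called in 9 of 12 alternatives) and Actg2 (log2 fold change 2.87, adjusted p 0.616 by edgeR).

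Of the coactivators that bind free actin and turn on SRF, Mkl2 rose (log2 fold change 2.72, SE 0.53, adjusted p 0.0151 by edgeR), whereas Mkl1 (−2.22, adjusted p 0.0643 by edgeR) and Srf (0.15, adjusted p 0.955 by edgeR) did not pass.

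Myosins and tropomyosins also held both directions, with 2 risen and 2 fallen of 13 tested. The leukocyte class I myosins Myo1g (log2 fold change −4.18, adjusted p 0.00401 by edgeR) and Myo1f (log2 fold change −3.48, adjusted p 0.00884 by edgeR) fell. Myh14, encoding a non-muscle myosin II heavy chain of epithelia, had 981 and 740 counts in Lgr6-positive libraries, against 1 and 0 in Lgr6-negative libraries (adjusted p 0.00293 by edgeR). Tpm1, encoding a tropomyosin that coats filaments, rose (log2 fold change 3.55, adjusted p 0.0101 by edgeR), and the other 9 of 13 tested did not pass. Among linkers of filaments to membranes and adhesions, the leukocyte-rich ezrin relative Msn (moesin) fell (log2 fold change −2.35, adjusted p 0.00279 by edgeR), as did the filamin Flna (log2 fold change −1.48, adjusted p 0.0242 by edgeR). The kindlin Fermt2 rose (log2 fold change 4.09, adjusted p 0.0363 by edgeR). Flna was not called under library-size scaling, and Fermt2 not under limma-voom or without replicate 1 of either population.

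**Figure D4:**
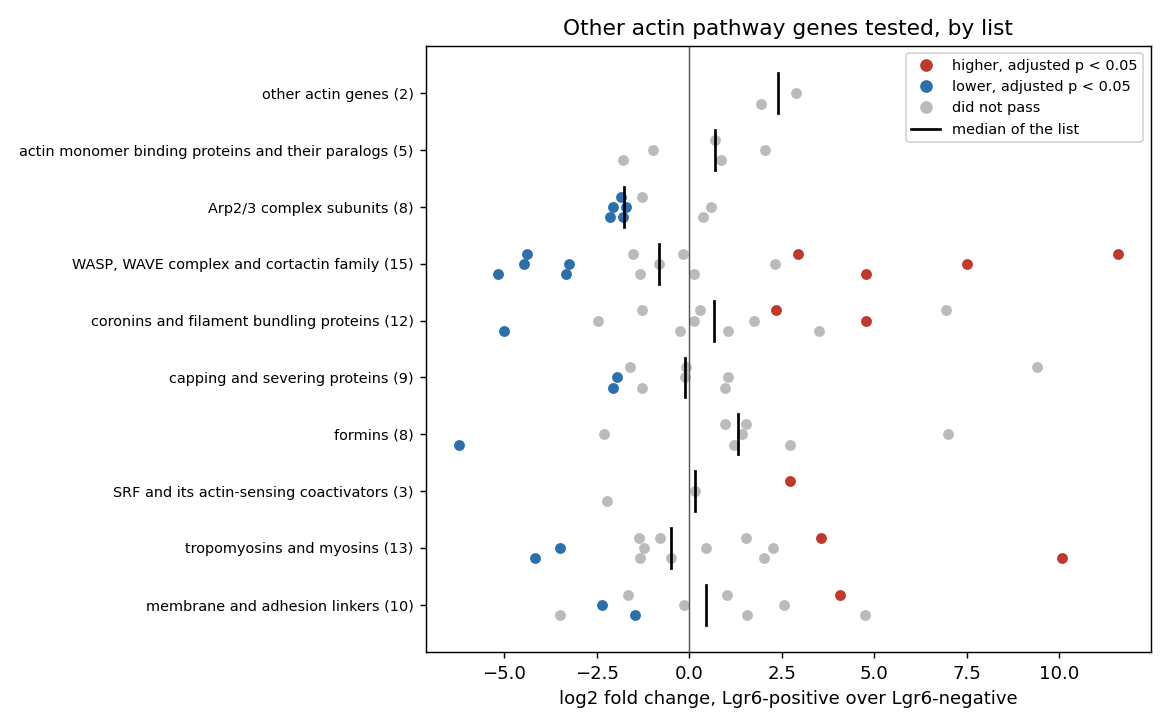
Log2 fold change, Lgr6-positive over Lgr6-negative, of 85 other tested genes of actin dynamics in 10 lists (red risen, blue fallen, grey not passing; black bars are medians; the number drawn stands beside each list). Fallen genes of the Arp2/3 complex lie near its median of −1.76, while the WASP, WAVE and cortactin list holds 5 fallen and 4 risen genes; fitted values of genes with 0 counts in Lgr6-negative libraries, such as Wipf3, depend on a prior count and are no bounds.

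The genes whose pattern over the 4 libraries was most like Actb were sought as those with the smallest root mean square difference of log2(CPM + 1) after removing each gene's own mean. Over 4 libraries and 8613 genes they were Rbm3 (0.0468), Alms1 (0.0548), Rps13 (0.0610), Upf3a (0.0685) and Zfp36l2 (0.0686). For Coro1a they were Slc2a6 (0.215), Oas1a (0.249), Pde6d (0.262), Lsp1 (0.277) and B4galt5 (0.290). In Lgr6-positive replicate 1, Slc2a6 (0 CPM) and Pde6d (0.245 CPM) were under the floor of 0.368 CPM, and Oas1a (0.613 CPM) was near it. Among the 10 genes the closest pair was Actb and Arpc1b (0.130) and the most distant pair Actg1 and Was (2.74). With 4 libraries these are descriptions of likeness and no more.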

How the data were processed

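The authors' deposited values are expected counts, unscaled for depth, in a single table of genes by library. Per the submitters' processing notes, the tools were RSEM 1.2.22 and STAR 2.4.2a and the build mm10. Which annotation, trimming or strand option they used is not given in the sources used here. Expected counts were rounded to whole counts; 24442 genes were in the table. Low genes were removed with filterByExpr at a minimum count of 10 and a minimum total of 15, which left 11661. Analysis used edgeR 4.0.16 in R 4.3.3 with TMM scaling, the quasi-likelihood functions glmQLFit and glmQLFTest, population as the single term, and Benjamini-Hochberg adjustment over all genes tested. The SE was obtained by dividing the absolute log2 fold change by the root of the F statistic. Alternatives used limma 3.58.1 and DESeq2 1.42.0. Steps were tested on simulated data.

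Members and lists were chosen with earlier results of these data known. Named genes were the 10 members, the relatives in family pairs, up to 4 genes of smallest p in each pathway list, and the 5 genes most like Actb and Coro1a; the text says where a gene outside this rule is named. Positions and transcripts came from GENCODE M21, and a gene's length is that of 1 principal transcript. Of the 11 lists of other actin genes, 1 list with 21 tested genes (8 lower, 0 higher) and 1 further gene enter the counts over all lists but are not reported here.

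Replicate libraries were distinct: chi-square over degrees of freedom was 101 between Lgr6-positive and 86.4 between Lgr6-negative libraries. An exact permutation test of 2 against 2 libraries cannot go below p = 0.333, so none is given.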

Additional observations from a re-analysis of the deposited data

How the results depend on the processing

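All 10 member genes stayed lower in Lgr6-positive cells under all 12 alternative analyses. They were chosen for lower values in these same libraries, so refits of the libraries are no independent check of the direction. Of 120 member values 100 moved by less than 1 SD between replicates and 20 by more. The number past the threshold was 9, but 6 under library-size scaling and 10 under limma-voom. Of all 11661 genes tested, 533, 327 and 728 were called lower in these 3 fits. Over all genes, 524 were higher and 533 lower. Without the filter these were 967 and 854, with DESeq2 1412 and 1003, and leaving out 1 library at a time 678 to 956 and 540 to 1030. Library-size scaling gave 327 lower. Among the other actin genes, 11 were higher (19 with DESeq2) and 26 lower (13 under library-size scaling). The replicate block gave 678 higher and 662 lower, though the labels do not pair the libraries. The deviations of same-numbered libraries had a correlation of −0.0236 over genes. That value rests on a single replicate difference per population, so it cannot show whether the libraries were paired. Of the pathway genes named, 4 that did not pass changed sign, and the cause was not tested. Leaving out 1 library at a time, the log2 fold change ranged between −0.55 (without Lgr6-positive replicate 1) and 0.62 for Srf, which was also at −0.23 without Lgr6-negative replicate 2. It ranged between −0.19 (without Lgr6-negative replicate 2) and 2.30 for Arpc1a, and between −0.69 and 0.069 (without Lgr6-negative replicate 1) for Coro1c, which was also at 0.040 without Lgr6-positive replicate 2 and 0.17 under library-size scaling. For Actg2 it was −6.50 without Lgr6-positive replicate 1 and 9.52 without Lgr6-negative replicate 2, each of which leaves 1 population at 0 counts, so neither value is a bound. With 2 libraries per population, 3 counts set the floor of detection, which limits Was in Lgr6-positive cells. The shares of windows found in other genes limit Actg1, Tmsb10 and Arpc1b, and reads divided between genes limit Actb and Actg1.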

Other observations

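Levels of Tmsb4x, Lcp1, Coro1a and Was are given here per unit of Ptprc, a leukocyte marker. Ptprc itself had a log2 fold change of −5.35, against a median of −4.08 over the 14 leukocyte markers and 0.10 over all genes tested. A gene that fell less than Ptprc comes out higher per unit of it, so nothing is read from the direction of these ratios. Tmsb4x stood at 11.9 and 24.5 CPM per CPM of Ptprc in Lgr6-positive libraries, against 2.26 and 3.25 in Lgr6-negative libraries. Lcp1 stood at 4.44 and 21.8 in Lgr6-positive libraries, against 1.21 and 1.36 in Lgr6-negative libraries. Coro1a overlapped between the populations, at 0.264 and 2.29 in Lgr6-positive libraries, against 0.423 and 0.723 in Lgr6-negative libraries. Was was lower in both Lgr6-positive libraries, at 0.0406 and 0, against 0.0469 and 0.105 in Lgr6-negative libraries. These ratios rest on the 394 and 185 Ptprc counts of the Lgr6-positive libraries.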
